A study of Arabidopsis thaliana with 9 samples.

Results

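The comparison described here set sepals of the mutant atml1-3 against wild-type sepals (WT) of Arabidopsis thaliana by RNA sequencing. It used the 6 libraries whose sample titles give either genotype, of 9 in the series, and was fitted anew from raw read counts, with nuclear genes apart from plastid and mitochondrial genes. Each genotype had 3 libraries. An atml1-3 library was made from 200 sepals taken from 50 buds of atml1-3 plants, and a WT library from the same numbers of Col-0 sepals and buds. All buds were unopened and at floral stage 12, and all plants grew at 23 °C under continuous light, and no other treatment is labelled. The remaining genotype of the series, gir1-1, entered only as an alternative. The labels do not say what the atml1-3 allele changes in the gene, whether sepals of 1 plant were kept together, or at which hour buds were collected. P-values therefore measure the spread between these 3 and 3 libraries, which may be partly technical.

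The ATML1 protein belongs to HD-ZIP IV, a class of plant homeodomain transcription factors with a lipid-binding START domain. Together with its close relative PDF2 it specifies the epidermis, and in sepals its level in a cell influences whether that cell leaves division, endoreduplicates and becomes a giant cell. HD-ZIP IV proteins bind an 8-base motif called the L1 box in promoters of epidermal genes, among them genes that build the cuticle.

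Sequencing depth was similar in both groups, with 15328056 to 19859287 counts in the atml1-3 libraries and 16607356 to 18284627 in the WT libraries. Levels are given in CPM, counts scaled to the same total in each library. At this depth 3 counts, the smallest amount taken as measurable, correspond to at most 0.189 CPM, a limit that covers counting error only. The scaling used TMM, which sets most genes equal between libraries, to the nuclear count of each library. The 3 WT libraries differed among themselves more than the 3 atml1-3 libraries did, with a biological coefficient of variation of 0.234 within atml1-3 and 0.318 within WT. WT replicate 3 stood apart from the other WT libraries. On the first principal component, which held 44.4% of the variance, the atml1-3 libraries lay at -19.99, -9.42 and -15.02, WT replicate 3 lay at -11.28, and the other WT libraries lay at 34.33 and 21.38. Results are therefore given with and without that library where it decides them.

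Marker genes were summed to check the tissue. The summed CPM over 6 sepal identity genes (AP1, AP2 and SEP1 to SEP4) was 773, 921 and 975 in atml1-3 and 761, 767 and 974 in WT. Anther and pollen markers summed to 1.83, 2.41 and 1.44 CPM over 11 genes in atml1-3 and to 2.25, 2.01 and 4.31 CPM in WT, with MS1, A9 and ATA7 at 0 counts in all 6 libraries. Carpel markers summed higher in every atml1-3 library, at 11.2, 7.37 and 12.5 CPM over 5 genes in atml1-3 and 6.06, 6.39 and 6.03 CPM in WT, with STK at 0. Most of that sum came from SHP1, except in WT replicate 2. All 4 tested carpel markers had a log2 fold change above 0, but only SHP1 separated the genotypes without overlap. The petal and stamen genes AP3 and PI summed to 47.9, 57.0 and 70.2 CPM in atml1-3 and to 23.7, 44.4 and 49.2 CPM in WT, nearly all of it from AP3. Nectary markers summed to 111, 95.1 and 89.3 CPM over 6 genes in atml1-3 and 77.0, 140 and 70.7 CPM in WT. Vascular markers summed to 814, 714 and 889 CPM over 6 genes in atml1-3 and to 798, 779 and 850 CPM in WT. Within them, the secondary wall gene IRX9 had 10.6, 15.9 and 10.1 CPM in atml1-3 and 1.96, 2.50 and 11.6 CPM in WT, so WT replicate 3 was set apart from the other WT libraries by these genes as well. The part that tissue composition had in any result below was not tested. Fewer cells of a type and less RNA per cell cannot be told apart in such whole-sepal samples.

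The targeted gene was examined first. ATML1 (AT4G21750, chromosome 4, 11555039 to 11560771, plus strand of TAIR10.1) had 7.81, 16.6 and 15.9 CPM in atml1-3 and 30.1, 32.7 and 51.5 CPM in WT. Every atml1-3 library was below every WT library, with means of 13.5 ± 4.90 CPM in atml1-3 and 38.1 ± 11.7 CPM in WT (SD, n = 3 each). On the log2 scale the difference was -1.50 (SE 0.33), and the adjusted p was 0.301 by edgeR's quasi-likelihood test and 0.00324 to 0.627 over the alternatives. The count covers the whole gene and does not show whether the transcript is intact. PDF2, the closest relative of ATML1, had 31.4, 42.0 and 38.2 CPM in atml1-3 and 40.0, 47.3 and 57.0 CPM in WT. These ranges overlapped, and the difference of -0.37 (SE 0.18) did not pass (adjusted p = 0.47 by edgeR). GIR1 (AT5G06270), a partner of the HD-ZIP IV factor GL2, had 0.882, 0.482 and 1.02 CPM in atml1-3 and 1.50, 2.19 and 4.31 CPM in WT. All atml1-3 values lay below the WT values, at -1.75 (SE 0.55) on the log2 scale and an adjusted p of 0.353 by edgeR. Its paralog GIR2 had 6.24, 11.1 and 6.53 CPM in atml1-3 and 13.8, 6.33 and 5.26 CPM in WT, with overlapping ranges and a difference of -0.09 (SE 0.41), whose sign changed between alternatives. LGO (AT3G10525), a cyclin-dependent kinase inhibitor required for giant cells, had 50.6, 27.9 and 41.2 CPM in atml1-3 and 15.6, 21.1 and 29.7 CPM in WT. Its value in atml1-3 replicate 2 fell within the WT range. Its log2 difference was 0.85 (SE 0.29), the adjusted p being 0.363 by edgeR. Over 45.4% of its length LGO shares its position with an annotated gene of the opposite strand, which leaves its level uncertain.

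**Figure D1:**
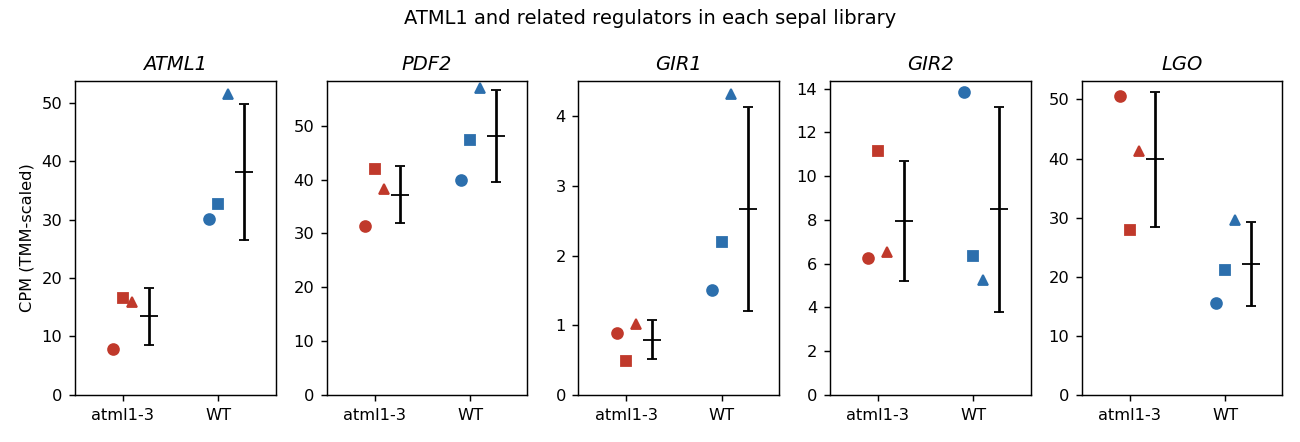
CPM (TMM-scaled, linear axes starting at 0) of ATML1, PDF2, GIR1, GIR2 and LGO in the 3 atml1-3 libraries (red, left) and the 3 WT libraries (blue, right); bars are mean ± SD, n = 3. ATML1 and GIR1 do not overlap between genotypes, whereas PDF2, GIR2 and LGO do.

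Over all nuclear genes, single genes were rarely separable from the spread between libraries. Of 18540 nuclear genes tested, 0 passed an adjusted p of 0.05 in either direction with edgeR (0.00%), and the smallest adjusted p was 0.0887. At an unadjusted p under 0.05 there were 1001 genes higher (5.40%) and 1227 lower (6.62%) in atml1-3. Scaled to total counts alone, with no TMM factor, that split was 1581 higher and 752 lower, and the median of all nuclear genes lay at 0.08 on the log2 scale. DESeq2's Wald test called 86 genes higher (0.464%) and 215 lower (1.16%). Without WT replicate 3, edgeR called 41 higher (0.216%) and 90 lower (0.474%). Genes whose 3 atml1-3 values lay wholly above the WT values made up 9.74%, and those wholly below 8.84%. The median log2 fold change of all nuclear genes was -0.01. Within 1 Mb of ATML1 on chromosome 4, 11% of 326 genes had an unadjusted p under 0.05, against 12.0% of all nuclear genes. Because no nuclear gene passed, families and pathway lists are described below by how many members lay on each side of 0, how many had an unadjusted p under 0.05 and their median log2 fold change. Over all nuclear genes 51.3% had a log2 fold change below 0, and the shares of members at an unadjusted p under 0.05 given below are to be read against 6.62% for lower and 5.40% for higher genes. Members of a family are not replicates, and no test was made over a list.

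Epidermal and cuticle genes were lower in atml1-3 in nearly every member, with modest differences. The cuticle is a lipid layer of cutin polyester and waxes that epidermal cells make from very long fatty acids. Of 27 cuticle and wax genes, 24 were tested, 23 had a log2 fold change below 0 and 1 above, and 7 had an unadjusted p under 0.05 (29.2%, against 6.62% of all genes), all lower. Their median was -0.52, and 4 lay lower without overlap (16.7%, against 8.84% of all genes). CER6, the ketoacyl-CoA synthase that elongates wax precursors, had 824, 1127 and 957 CPM in atml1-3 and 1625, 1552 and 1252 CPM in WT. Every atml1-3 value was below every WT value, with a log2 difference of -0.61 (SE 0.20) and adjusted p of 0.36 by edgeR. KCS1, an elongase of the same family, had 30.6, 49.5 and 39.8 CPM in atml1-3 and 73.7, 56.7 and 77.1 CPM in WT, again without overlap, at -0.79 (SE 0.21). MYB16, a transcription factor that activates cuticle genes, had 20.6, 36.1 and 27.1 CPM in atml1-3 and 45.5, 36.0 and 68.0 CPM in WT, where atml1-3 replicate 2 reached the lowest WT value, at -0.83 (SE 0.28). CYP86A8, a fatty acid hydroxylase of cutin synthesis, had 4.22, 8.38 and 5.27 CPM in atml1-3 and 10.3, 8.22 and 14.8 CPM in WT, at -0.90 (SE 0.33). Among members with a higher p were the glycerol acyltransferase GPAT6, the only gene above 0, at 0.24 (SE 0.29), and the alkane-forming pair CER1 and CER3 at -0.33 (SE 0.20) and -0.25 (SE 0.18). The per-library median of the list, of log2(CPM + 0.5) minus the WT mean, was -0.83, -0.15 and -0.46 in atml1-3 and -0.22, -0.12 and 0.27 in WT, so atml1-3 replicate 2 lay within the WT range. Without WT replicate 3 the median fold change was -0.26 on the log2 scale. Of 25 members then tested, 3 were lower at an unadjusted p under 0.05, against 9.20% of all genes lower and 7.46% higher. Without atml1-3 replicate 1 the median was -0.34.

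The L1 box, TAAATGCA or TAAATGTA, was looked for on both strands in the 250 bases before each annotated gene start. It occurred in 3 of the 24 cuticle promoters and in 2 of 7 promoters of the epidermis markers, against 4.49% of all 27443 protein-coding nuclear genes and 4.52% of those tested. The 2 epidermis matches, FDH and ABCG11, are also among the 3 cuticle matches. The log2 fold changes of ABCG11 and of CUS2, the third, were -0.14 and -0.43, with unadjusted p of 0.47 and 0.35 by edgeR. Among all genes with an unadjusted p under 0.05, the L1 box was present in 5.46% of 1208 lower and 3.35% of 954 higher genes. The FDH promoter is shown because it holds the motif bound by ATML1 and its relatives and FDH is on the epidermis list. It was read from RefSeq TAIR10.1 at chr2:11173279-11173528 (minus strand) and is printed 5′ to 3′ on the gene's strand, with the L1 box in capitals.
FDH: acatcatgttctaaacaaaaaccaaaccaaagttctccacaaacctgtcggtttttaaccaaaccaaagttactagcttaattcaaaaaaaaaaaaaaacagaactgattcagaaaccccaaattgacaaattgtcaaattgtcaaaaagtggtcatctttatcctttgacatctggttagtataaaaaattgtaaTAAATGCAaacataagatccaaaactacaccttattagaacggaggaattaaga
The match begins 54 bases before the gene start. A match describes letters and is not a binding site.

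Epidermis markers summed to 1351, 1900 and 1615 CPM in atml1-3, below 2529, 2339 and 2219 CPM in WT. Of 8 such genes, 7 were tested, ATML1 included, and all 7 were below 0 (median -0.47, 4 with an unadjusted p under 0.05). Without atml1-3 replicate 1 that median was -0.30. The list is not a separate check of the epidermis, because ATML1 is the targeted gene and members such as CER6, FDH and ABCG11 are also on the cuticle list. In each library CER6 and FDH made up most of the sum. PDF1, often used as a marker of the outer cell layer, was near the floor with 0.315, 0 and 0.838 CPM in atml1-3 and 0.635, 0.365 and 0.355 CPM in WT. FDH, an elongase needed to keep organs from fusing, had 247, 338 and 294 CPM in atml1-3 and 446, 318 and 457 CPM in WT, with overlap and a log2 fold change of -0.47 (SE 0.20). CER5, an exporter of wax, had 129, 197 and 165 CPM in atml1-3 and 246, 235 and 207 CPM in WT, without overlap, at -0.49 (SE 0.19). Ketoacyl-CoA synthases as a family, of which KCS1, CER6 and FDH are members, had 11 of 14 members below 0 and a median of -0.30, with 5 lower (35.7%) and 1 higher at an unadjusted p under 0.05, and of -0.52 without WT replicate 2. KCS20, another wax elongase of this family, had 124, 145 and 153 CPM in atml1-3 and 209, 174 and 213 CPM in WT, at -0.49 (SE 0.16). Of 15 HD-ZIP IV genes other than ATML1, 7 were tested and 6 were below 0 (median -0.41), but 0 had an unadjusted p under 0.05. HDG12 had 1.01, 2.17 and 1.14 CPM in atml1-3 and 2.37, 2.25 and 3.66 CPM in WT and HDG1 had 30.5, 36.3 and 28.4 CPM in atml1-3 and 41.7, 32.3 and 52.6 CPM in WT, so of these only HDG12 did not overlap.

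The giant cell and endoreduplication list gave both directions. Of its 14 tested members, 10 were below 0 and 4 above, with a median of -0.22, which was -0.07 without WT replicate 3 and -0.37 without WT replicate 2. DEK1, a membrane protease upstream of epidermal fate, had 44.0, 44.6 and 45.3 CPM in atml1-3 and 68.8, 65.5 and 60.3 CPM in WT. The groups did not overlap, at -0.54 (SE 0.13) on the log2 scale and an adjusted p of 0.32 by edgeR and 0.0429 to 0.629 over the alternatives. ACR4, a receptor kinase of the epidermis, had 5.10, 8.63 and 8.20 CPM in atml1-3 and 9.35, 9.56 and 14.2 CPM in WT, at -0.59 (SE 0.28). KRP1, which inhibits cyclin-dependent kinases as LGO does, had 45.4, 39.1 and 42.0 CPM in atml1-3 and 22.3, 31.5 and 35.3 CPM in WT, higher without overlap, at 0.51 (SE 0.19). The related inhibitors SIM and SMR2, and CCS52A1, an activator of the complex that degrades mitotic cyclins, were at -0.11 (SE 0.27), 0.16 (SE 0.29) and -0.12 (SE 0.28).

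Genes that respond rapidly to touch, wounding and elicitors had the lowest median of all lists and families described. These genes encode calcium sensors, zinc finger, WRKY and ERF transcription factors and RNA decay factors, and are known for transient induction. Of 38 listed genes, 33 were tested and 33 were below 0, with a median of -1.29, and 23 had an unadjusted p under 0.05, against 6.62% of all genes in that direction. For 20 of them, 60.6%, the libraries did not overlap, against 8.84% of all genes. The list was put together after the fit was seen, so its direction is a description. Library medians relative to the WT mean were -1.23, -1.26 and -1.20 in atml1-3 and 0.33, -0.01 and -0.30 in WT. SZF1, a tandem zinc finger protein of stress responses, had 55.1, 35.8 and 48.7 CPM in atml1-3 and 145, 117 and 141 CPM in WT. On the log2 scale the difference was -1.53 (SE 0.19), and the adjusted p was 0.205 by edgeR and 2.68e-08 to 0.627 over the alternatives. RHL41, also called ZAT12, a zinc finger factor of oxidative and light stress, had 27.9, 30.4 and 26.3 CPM in atml1-3 and 105, 81.8 and 56.8 CPM in WT, without overlap, at -1.53 (SE 0.23). ORA47, an ERF factor that activates jasmonate synthesis, had 8.57, 16.8 and 13.9 CPM in atml1-3 and 75.7, 107 and 33.9 CPM in WT. It was lower in every atml1-3 library, at -2.46 (SE 0.42), but varied widely within WT. TCH2, a calmodulin-like protein induced by touch, had 46.6, 25.9 and 36.1 CPM in atml1-3 and 122, 88.6 and 78.4 CPM in WT, at -1.41 (SE 0.25). A gene of the opposite strand covers 34.3% of TCH2, which leaves its level uncertain. Among further members, ACS6, which makes the ethylene precursor, had 41.9, 23.9 and 34.1 CPM in atml1-3 and 96.1, 61.9 and 79.8 CPM in WT, and the deadenylase subunit CAF1a had 16.2, 8.58 and 13.2 CPM in atml1-3 and 42.5, 25.5 and 53.5 CPM in WT, both without overlap. The cold-response factor CBF2 had 1.26, 0.819 and 1.68 CPM in atml1-3 and 6.87, 16.6 and 1.18 CPM in WT, where WT replicate 3 fell among the atml1-3 values. TCH4 and PHI-1, linked to wall loosening and growth, had overlapping values that spread widely in both genotypes, with 599, 67.8 and 163 CPM in atml1-3 and 489, 144 and 735 CPM in WT for TCH4. Without WT replicate 3 the median was -1.24, and edgeR called 11 of 34 members tested, all lower, against 0.474% of all genes.

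**Figure D2:**
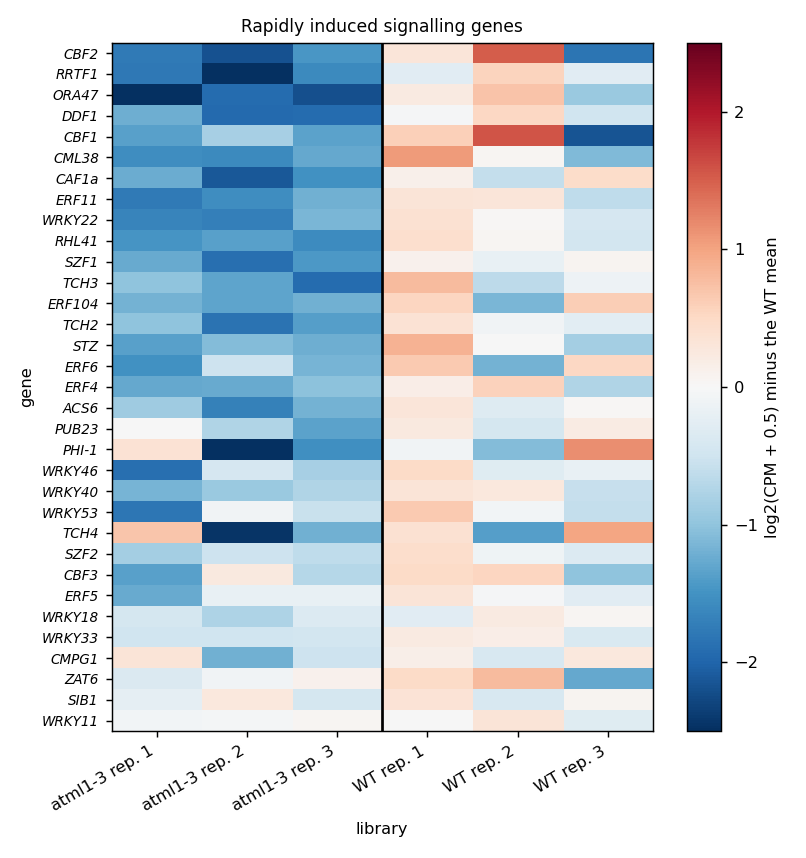
Heat map of log2(CPM + 0.5) minus the WT mean for the 33 tested genes of the rapid response list (rows, ordered by log2 fold change) in 3 atml1-3 libraries (left of the line) and 3 WT libraries (right). Blue is below and red above the WT mean, and colours end at 2.5; most rows are blue in all atml1-3 libraries, while in WT replicate 3 CBF1 and CBF2 are as low as in atml1-3.

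Promoters of these genes were read for CGCGTT, the core of the rapid stress response element that calmodulin-binding CAMTA factors recognise, in the same 250-base windows and on both strands. It occurred in 4 of the 33 tested promoters (12.1%), against 2.59% of all protein-coding nuclear genes and 2.84% of those tested. These were TCH2 and CBF2, with unadjusted p of 0.000487 and 0.0104 by edgeR, and CMPG1 and PHI-1. CMPG1 and PHI-1 were at -0.40 and -1.10 on the log2 scale, with unadjusted p of 0.41 and 0.25. The W box TTGACC or TTGACT, bound by WRKY factors, occurred in 15 of 33 (45.5%), against 27.5% of those tested. Among all genes with an unadjusted p under 0.05, CGCGTT was present in 4.97% of 1208 lower and 1.57% of 954 higher genes. The 3 promoters below belong to a calcium sensor, a cold-response factor and the immune receptor gene with the smallest p. They are shown 5′ to 3′ on the gene's strand with every CGCGTT or its reverse complement AACGCG in capitals, where an AACGCGTT holds both. They were read from RefSeq TAIR10.1 at chr5:14999620-14999869 (minus strand), chr4:13016236-13016485 (minus strand) and chr5:16688376-16688625 (plus strand).
TCH2: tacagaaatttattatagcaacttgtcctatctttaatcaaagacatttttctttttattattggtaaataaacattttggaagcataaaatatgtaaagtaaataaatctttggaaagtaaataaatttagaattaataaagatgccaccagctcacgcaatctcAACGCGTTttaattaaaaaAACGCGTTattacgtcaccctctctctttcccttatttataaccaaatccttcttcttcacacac
CBF2: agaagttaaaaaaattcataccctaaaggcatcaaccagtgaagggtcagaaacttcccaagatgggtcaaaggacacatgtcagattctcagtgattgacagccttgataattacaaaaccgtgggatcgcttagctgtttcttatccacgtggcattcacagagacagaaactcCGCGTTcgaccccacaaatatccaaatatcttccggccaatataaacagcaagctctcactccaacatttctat
AT5G41740: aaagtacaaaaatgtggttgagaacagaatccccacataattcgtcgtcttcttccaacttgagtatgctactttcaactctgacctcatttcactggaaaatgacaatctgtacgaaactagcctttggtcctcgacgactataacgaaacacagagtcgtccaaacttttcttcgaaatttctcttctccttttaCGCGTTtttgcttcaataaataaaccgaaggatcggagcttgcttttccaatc
In TCH2 the motif lies in a pair of AACGCGTT stretches close to the gene start, the more distant one beginning 84 bases upstream.

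Transcription factors of the AP2/ERF family, known from ethylene and cold responses, had 52 of 75 tested members below 0, a median of -0.31, and 16 lower (21.3%, against 6.62% of all genes) and 1 higher at an unadjusted p under 0.05. Several of them are also on the rapid response list. The gene with the smallest p of all nuclear genes belongs to this family. AT5G21960 (ERF016) had 1.01, 1.25 and 1.14 CPM in atml1-3 and 9.81, 7.55 and 10.6 CPM in WT. No library overlapped, the log2 difference was -3.03 (SE 0.29) and the adjusted p was 0.0887 by edgeR and 8.47e-14 to 0.606 over the alternatives. ERF-1, an activator of defence genes, had 27.7, 24.5 and 24.2 CPM in atml1-3 and 45.5, 45.5 and 39.1 CPM in WT, without overlap, at -0.77 (SE 0.15). ERF11, a repressor, had 3.78, 4.53 and 5.87 CPM in atml1-3 and 17.9, 17.6 and 8.98 CPM in WT, at -1.65 (SE 0.32), with WT replicate 3 closest to the mutant. The library medians of the family overlapped between genotypes, since WT replicate 3 was at -0.16 and atml1-3 replicates 2 and 3 were at -0.14 and -0.16. The median fold change of the family was -0.15 without WT replicate 1 and -0.20 without atml1-3 replicate 1 on the log2 scale.

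Immune receptors of the NB-LRR class, intracellular proteins that detect pathogen effectors, were lower as a group. Of 122 tested members 106 were below 0 (86.9%), and 39 had an unadjusted p under 0.05, all lower, against 6.62% of all genes. The median was -0.33, and the library medians were -0.32, -0.35 and -0.29 in atml1-3, against 0.11, -0.02 and -0.13 in WT, so they did not overlap. AT5G41740, a TIR-type receptor gene, had 14.8, 14.7 and 15.8 CPM in atml1-3 and 59.1, 74.8 and 28.2 CPM in WT, at -1.84 (SE 0.32) on the log2 scale and an adjusted p of 0.301 by edgeR and 8.31e-05 to 0.627 over the alternatives. AT1G31540 had 19.4, 20.8 and 23.1 CPM in atml1-3 and 58.6, 50.9 and 33.0 CPM in WT, at -1.17 (SE 0.22). AT3G44630 was at -0.73 (SE 0.16), and AT5G45060 (RPS4B), related to the receptor RPS4, had 33.4, 33.1 and 35.3 CPM in atml1-3 and 71.0, 58.0 and 44.6 CPM in WT, at -0.77 (SE 0.19). For the 3 with values given WT replicate 3 was the WT library nearest to atml1-3. The family holds near-identical copies whose reads can be shared, so single members are uncertain. AT1G58807 and AT1G59124 have the same 250 promoter bases. Of the 122 promoters 12 held CGCGTT (9.84%), as in the AT5G41740 sequence above, and 47 held a W box (38.5%). Receptor-like kinases with LRR or lectin domains, a family chosen after its values were seen, had 196 of 267 members below 0, a median of -0.25, and 33 lower (12.4%, against 6.62% of all genes) and 6 higher at an unadjusted p under 0.05. Without WT replicate 3 that median was -0.15.

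Salicylate defence genes had a median of -0.93 over 11 tested members, of which 10 were below 0 and 5 had an unadjusted p under 0.05 (45.5%), yet 0 members separated the genotypes without overlap. PR2, a glucanase and classical marker of this response, had 0.252, 3.61 and 0.299 CPM in atml1-3 and 41.9, 4.99 and 1.06 CPM in WT. PR5 had 0.126, 2.07 and 0.240 CPM in atml1-3 and 16.8, 3.90 and 0.591 CPM in WT and ICS1, the synthase of salicylate, had 1.70, 2.55 and 1.32 CPM in atml1-3 and 16.5, 2.98 and 1.83 CPM in WT. In each case WT replicate 1 alone was high and the other WT libraries lay near or within the atml1-3 range. PBS3, which acts after ICS1, had 27, 26.4 and 20.8 CPM in atml1-3 and 38.3, 49.4 and 26.2 CPM in WT, with overlap at WT replicate 3. Library medians were -0.63, -0.47 and -1.49 in atml1-3 and 0.73, -0.38 and -0.48 in WT. The median fold change was -0.37 on the log2 scale without WT replicate 1, -1.53 without WT replicate 2 and -1.53 without atml1-3 replicate 2.

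Jasmonate genes were lower in 19 of 22 tested members, with a median of -0.35 and 9 lower at an unadjusted p under 0.05 (40.9%, against 6.62% of all genes). That median was -0.64 without WT replicate 3 and -0.56 without atml1-3 replicate 2. DAD1, a lipase that releases the fatty acid precursor in flowers, had 1.07, 1.73 and 1.44 CPM in atml1-3 and 10.1, 16.3 and 2.42 CPM in WT. No library overlapped, at -2.75 (SE 0.63) on the log2 scale and an adjusted p of 0.307 by edgeR and 0.00164 to 0.627 over the alternatives. LOX4, a lipoxygenase of the pathway, had 53.3, 68.3 and 60.9 CPM in atml1-3 and 115, 164 and 99.6 CPM in WT, without overlap, at -1.05 (SE 0.21). OPCL1, which activates a late intermediate, had 33.8, 58.7 and 46.3 CPM in atml1-3 and 70.3, 95.1 and 76.4 CPM in WT, at -0.80 (SE 0.22). JAR1, which conjugates jasmonate to isoleucine, had 42.0, 56.5 and 64.1 CPM in atml1-3 and 193, 246 and 54.5 CPM in WT, where WT replicate 3 fell within the atml1-3 range. The storage protein genes VSP1 and VSP2, classical jasmonate outputs, were at 0.29 (SE 0.40) and 0.72 (SE 0.41), above 0 and with overlap. The TIFY and JAZ family of jasmonate repressors had 12 of 16 members below 0 and a median of -0.31, with 2 genes in each direction at an unadjusted p under 0.05 (12.5% each). It was -0.15 without WT replicate 2 and -0.17 without WT replicate 3. JAZ5, which is on both lists, had 20.4, 23.6 and 22.0 CPM in atml1-3 and 34.7, 45.7 and 35.2 CPM in WT, at -0.81 (SE 0.17), and JAZ3 had 62.7, 61.3 and 60.5 CPM in atml1-3 and 75.9, 78.0 and 80.1 CPM in WT, at -0.34 (SE 0.12).

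Genes of carbon fixation and photorespiration were lower in every tested member. Of 24 genes listed after the fit was seen, 23 were tested and 23 were below 0, with a median of -0.51. An unadjusted p under 0.05 was found for 15 (65.2%), and 20 did not overlap (87.0%, against 8.84% of all genes). Library medians were -0.48, -0.50 and -0.54 in atml1-3 and -0.06, 0.33 and -0.28 in WT, so WT replicate 3 was nearest to the mutant. Without WT replicate 2 the median fold change was -0.31 on the log2 scale. CA1 and CA2 encode carbonic anhydrases, which interconvert carbon dioxide and bicarbonate. CA1 had 958, 1035 and 855 CPM in atml1-3 and 2217, 2909 and 1647 CPM in WT, at -1.25 (SE 0.24) on the log2 scale and an adjusted p of 0.301 by edgeR and 0.000189 to 0.627 over the alternatives. CA2 had 184, 202 and 120.4 CPM in atml1-3 and 740.1, 432 and 359 CPM in WT, at -1.60 (SE 0.31). FBA1, a plastid aldolase of the Calvin cycle, had 509, 544 and 510.4 CPM in atml1-3 and 1292, 1543 and 815 CPM in WT, at -1.22 (SE 0.25). GAPA, which acts in the reduction step of the cycle, had 1565, 1609.7 and 1455 CPM in atml1-3 and 2928, 2649 and 1970.5 CPM in WT, at -0.70 (SE 0.21). In all of these genes the groups did not overlap. RCA, the activator of Rubisco, had 5369.5, 5156 and 6035 CPM in atml1-3 and 9163, 12925 and 7392 CPM in WT, at -0.83 (SE 0.26). The Rubisco small subunit gene RBCS1A had 8945, 9543 and 7971 CPM in atml1-3 and 9998, 14493 and 9942 CPM in WT, at -0.38 (SE 0.25). The small subunit genes are near-identical over long stretches, so reads can be shared among them.

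Chlorophyll synthesis genes, also listed after the fit was seen, were below 0 in 12 of 13 tested members, with a median of -0.33 and 7 lower at an unadjusted p under 0.05 (53.8%, against 6.62% of all genes). CHLM, a methyltransferase of the pathway, had 152, 156 and 128 CPM in atml1-3 and 278, 214 and 220.1 CPM in WT, at -0.71 (SE 0.17). GUN5, the large subunit of magnesium chelatase, had 1007, 978 and 1032 CPM in atml1-3 and 1549.9, 1939 and 1461 CPM in WT, at -0.71 (SE 0.19). CRD1, the cyclase subunit, had 652, 583 and 554 CPM in atml1-3 and 774, 883 and 809.9 CPM in WT, at -0.46 (SE 0.16) and with 20.9% of its length overlapped by a gene of the other strand, and the reductase PORB was at 0.14 (SE 0.43). Nuclear genes for photosystem and light-harvesting proteins had 48 of 69 members below 0, a median of -0.08, and 7 lower (10.1%) and 2 higher (2.90%) at an unadjusted p under 0.05. Scaled to total counts, their median was 0.000425, without WT replicate 3 it was -0.0021 and without WT replicate 1 -0.20, so no direction is given for them. The nuclear-encoded plastid transcription machinery had a median of -0.18 over 20 genes, 17 below 0 and 3 with an unadjusted p under 0.05 (15%). Its sigma factor SIG6, which directs the plastid-encoded polymerase to promoters, had 71.3, 81.5 and 66.5 CPM in atml1-3 and 105, 101 and 91.8 CPM in WT, at -0.44 (SE 0.14).

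**Figure D3:**
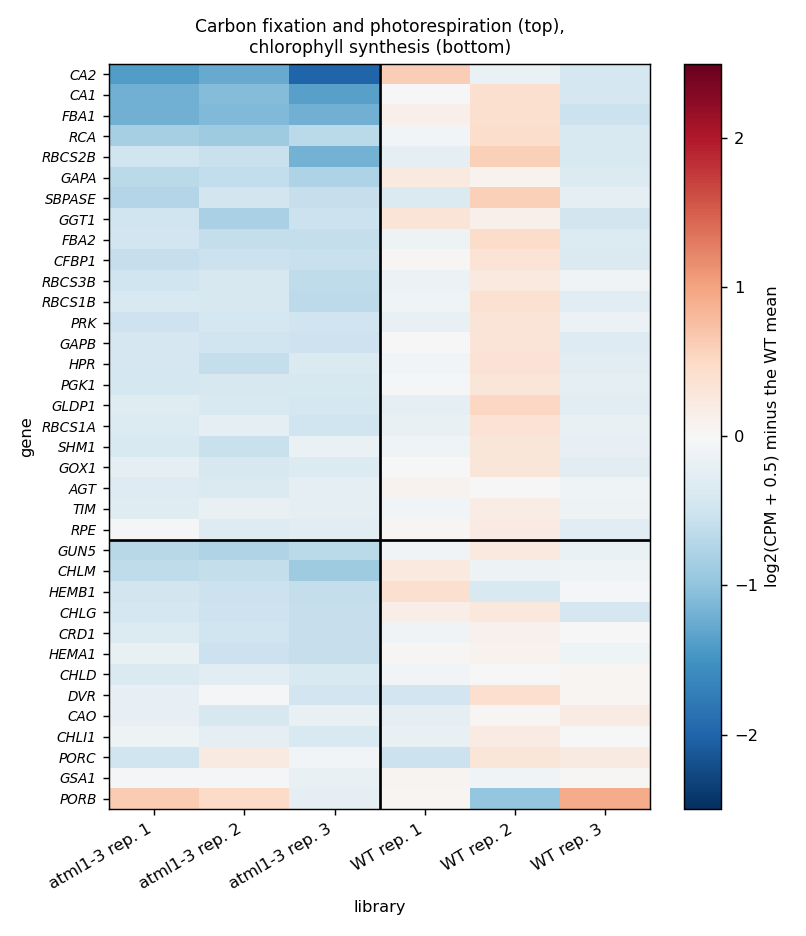
Heat map of log2(CPM + 0.5) minus the WT mean for 23 carbon fixation and photorespiration genes (above the line) and 13 chlorophyll synthesis genes (below it) in 3 atml1-3 libraries (left) and 3 WT libraries (right). CA1, CA2 and FBA1 show the deepest blue in atml1-3, and WT replicate 2 is the WT library with the most red among carbon fixation genes.

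Organelle genes were the one class in which single genes passed, but their p-values were adjusted over 84 genes and those of nuclear genes over 18540. By edgeR the smallest unadjusted p was 0.000107 among organelle genes (rbcL). It was 4.89e-06 among nuclear genes (AT5G21960), which did not pass, so the passing of organelle genes does not mean that they were better separated. They were fitted apart from nuclear genes with the nuclear library sizes, so a value is relative to nuclear RNA. Of 84 genes tested, 57 plastid and 27 mitochondrial, 17 passed an adjusted p of 0.05 with edgeR (20.2%), all lower in atml1-3, and 32 did not overlap (38.1%). Of these 17, plastid genes made up 15 and mitochondrial genes 2. Their RNA formed a small share of each library. Plastid genes took 0.0360%, 0.0323% and 0.0228% of counts in atml1-3 and 0.0871%, 0.0580% and 0.0535% in WT. Mitochondrial genes took 0.0268%, 0.0227% and 0.0168% in atml1-3 and 0.0344%, 0.0369% and 0.0439% in WT. How ribosomal and messenger RNA were separated, on which such shares depend, is not given in the sources used here.

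The large subunit of Rubisco, rbcL, had 24.6, 24.8 and 21.3 CPM in atml1-3 and 85.2, 76.2 and 55.6 CPM in WT. It fell in atml1-3, at -1.62 (SE 0.28) on the log2 scale and an adjusted p of 0.00809 by edgeR. Photosystem II genes psbD and psbC, whose products hold the reaction centre and an inner antenna, also fell. For psbD the values were 6.99, 8.67 and 7.43 CPM in atml1-3 and 18.6, 18.9 and 18.1 CPM in WT, at -1.27 (SE 0.23) (adjusted p = 0.00809). For psbC they were 16.3, 18.0 and 13.6 CPM in atml1-3 and 35.7, 36.5 and 33.0 CPM in WT, at -1.13 (SE 0.25) (adjusted p = 0.0153). The photosystem I core gene psaA fell with 9.33, 10.1 and 8.62 CPM in atml1-3 and 22.1, 20.9 and 18.7 CPM in WT, at -1.14 (SE 0.23) (adjusted p = 0.0135), and atpA of the ATP synthase with 4.03, 3.47 and 3.29 CPM in atml1-3 and 9.0, 7.25 and 6.85 CPM in WT, at -1.10 (SE 0.25) (adjusted p = 0.0166). No library overlapped for any of these 5. The other protein genes that fell were psaB, psbA, petA, petB, rps14 and rpoC1, with log2 fold changes between -1.45 and -0.89. Plastid ribosomal RNA genes fell as well, with rrn16S at -1.78 (SE 0.41) and rrn23S at -1.96 (SE 0.51). In these WT replicate 1 was far above the other WT libraries, with 16.8, 12.0 and 7.25 CPM in atml1-3 and 66.7, 29.1 and 28.3 CPM in WT for rrn16S. The plastid ribosomal RNA genes lie in a repeated region, and each has a second copy among the genes that passed (ArthCr088 and ArthCr089), so their reads are shared and the copies are not independent. The 2 mitochondrial genes were the ribosomal RNAs rrn26 and rrn18, at -0.94 (SE 0.29) and -1.01 (SE 0.32). No organelle gene passed in the higher direction, and the smallest p among genes above 0 was 0.239, of a mitochondrial non-coding RNA that a gene on the other strand overlaps in full. Other genes above 0 included clpP at 0.27 (SE 0.26), psaC at 0.62 (SE 0.71) and psaJ at 0.33 (SE 0.40).

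The organelle calls depended on the scaling, on single libraries and on the genes fitted together. When each organelle's own count was used as the library size, 0 genes were lower past the threshold and 1, clpP, was higher, with rbcL at -0.37 and psbD at -0.05 on the log2 scale. Without atml1-3 replicate 2 the count of genes past the threshold was 0, without atml1-3 replicate 3 it was 7, and without WT replicate 2 or WT replicate 3 it was 11. In one fit of nuclear and organelle genes together, with p-values adjusted over both, it was 0. There psaA was at -1.15 on the log2 scale, against -1.14 in the fit reported, with adjusted p of 0.199 against 0.0135 by edgeR. Summed over all plastid genes, the level was 348, 309 and 224 CPM in atml1-3, below all WT values of 918, 624 and 525 CPM.

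**Figure D4:**
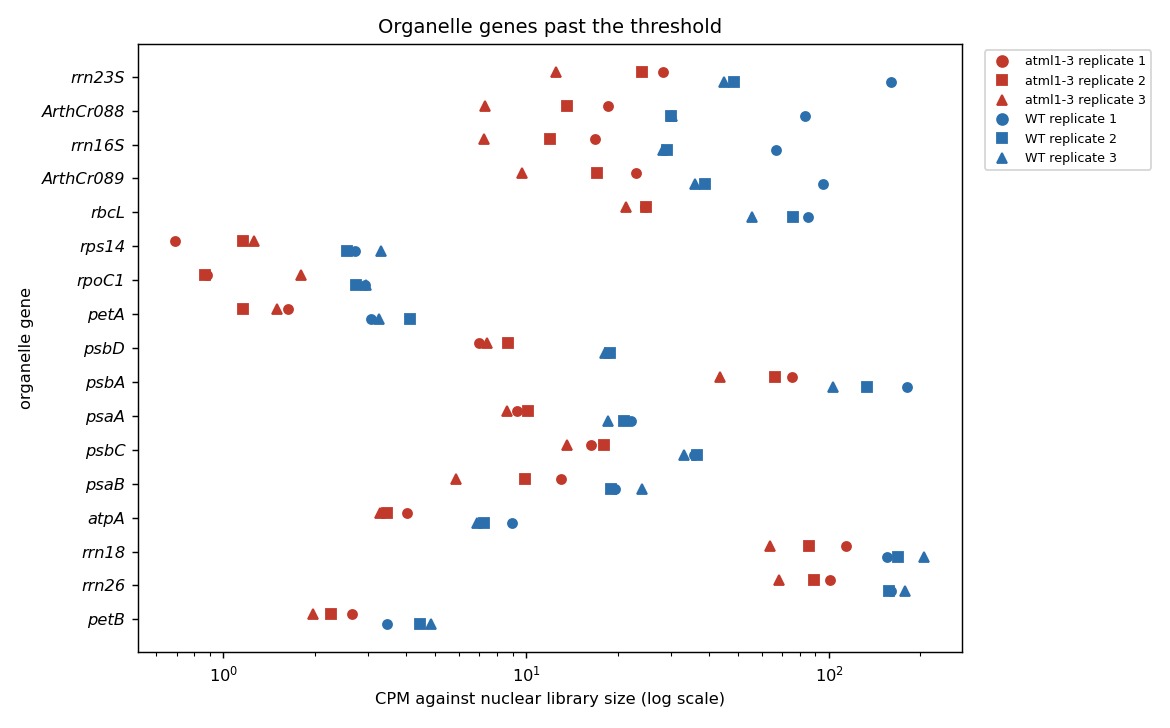
CPM against nuclear library size (log axis) of the 17 organelle genes past the threshold, with atml1-3 libraries (red) above WT libraries (blue) in each row and a marker shape per replicate number. The genotypes do not overlap for any gene shown, and WT replicate 1 stands out for the plastid ribosomal RNAs.

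Of the 8 families with the lowest medians, 4 act in wall synthesis, transport or growth and are given here. Cellulose synthases and related proteins, which make the main wall polymers, had 20 of 30 tested members below 0 and a median of -0.40, with 9 lower (30%, against 6.62% of all genes) and 0 higher at an unadjusted p under 0.05. CESA6, a subunit of the primary wall complex, had 174, 138 and 153 CPM in atml1-3 and 292, 253 and 265 CPM in WT. The groups did not overlap, at -0.80 (SE 0.16), with an adjusted p of 0.301 by edgeR and 0.00154 to 0.627 over the alternatives. CESA5 and CESA2, which can take its place in the complex, were at -0.61 (SE 0.15) and -0.51 (SE 0.16), and CSLA07, a mannan synthase, at -0.82 (SE 0.18). Secondary wall members, high in WT replicate 3 like IRX9, lay above 0 when WT replicate 3 was left out, with CESA4 at 1.09 and CESA7 at 1.24 on the log2 scale, and the family median was then -0.15. Kinesins, motor proteins of microtubules, had 55 of 66 members below 0 and a median of -0.34, with 9 lower (13.6%) and 0 higher at an unadjusted p under 0.05. KAC2, which acts in chloroplast movement, had 26.7, 28.6 and 28.1 CPM in atml1-3 and 39.1, 34.2 and 36.0 CPM in WT, at -0.39 (SE 0.14). The kinesin gene AT4G26660 had 0.0630, 0.386 and 0.0599 CPM in atml1-3 and 1.15, 1.89 and 2.25 CPM in WT, mostly near the floor in atml1-3. Aquaporins, channels for water, had 18 of 26 members below 0 and a median of -0.30, and 2 had an unadjusted p under 0.05, a share of 7.69% that is close to the 6.62% of all genes. Without atml1-3 replicate 1 that median was -0.12. PIP2E had 228, 333 and 284 CPM in atml1-3 and 681, 459 and 446 CPM in WT, at -0.91 (SE 0.23), and PIP1;5 had 466, 431 and 436 CPM in atml1-3 and 566, 574 and 555 CPM in WT, at -0.35 (SE 0.15). AUX/IAA repressors of auxin signalling had 17 of 20 members below 0, a median of -0.30 and a single gene, IAA2, with an unadjusted p under 0.05 (5%, below the share of all genes), at 28.2, 26.6 and 26.3 CPM in atml1-3 and 66.2, 38.0 and 35.4 CPM in WT. The median was -0.20 without WT replicate 3. Of wall families outside these, expansins, which loosen walls, had 9 members above and 9 below 0. Xyloglucan endotransglucosylases, which cut and rejoin wall polymers, had a median of -0.17, but of 0.24 without WT replicate 3. Pectin methylesterases and their inhibitors had a median of -0.14, but of 0.20 without WT replicate 2.

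**Figure D5:**
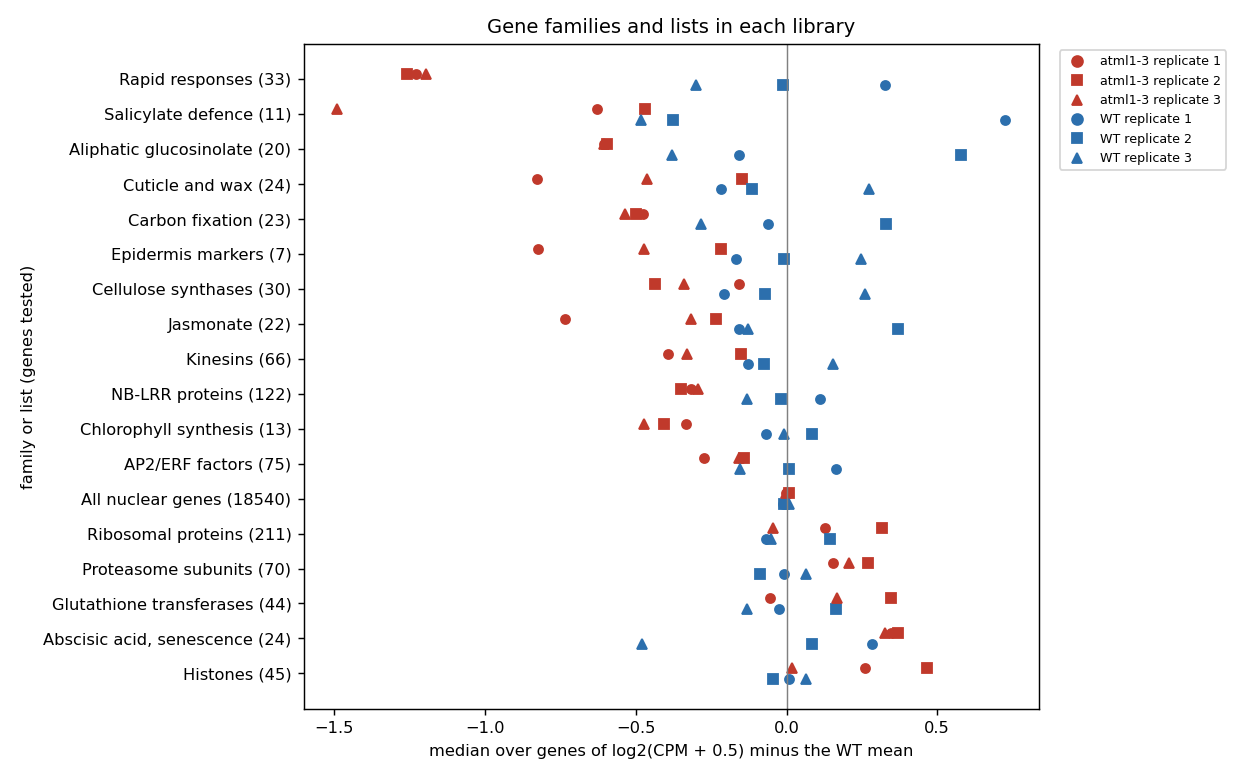
For each family or list (rows, number of tested genes in parentheses), the median over genes of log2(CPM + 0.5) minus the WT mean in each atml1-3 library (red) and each WT library (blue, below), with a marker shape per replicate number. The median of all nuclear genes lies near 0 in every library; rapid response, NB-LRR, carbon fixation and chlorophyll genes lie lower in all atml1-3 libraries, and proteasome subunits higher.

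Families above 0 included the proteasome, the complex that degrades ubiquitin-tagged proteins. Of 70 tested subunit genes 58 were above 0 (82.9%, against 48.7% of all genes), 15 had an unadjusted p under 0.05 (21.4%) and all 15 were higher, against 5.40% of all genes. The median was 0.19. Library medians were 0.16, 0.27 and 0.21 in atml1-3, above -0.01, -0.09 and 0.06 in WT. The alpha subunit gene PAB1 had 77.5, 80.7 and 83.2 CPM in atml1-3 and 51.2, 53.3 and 66.7 CPM in WT, at 0.50 (SE 0.15). PBG1, a beta subunit, had 124, 125 and 119.9 CPM in atml1-3 and 82.2, 90.6 and 101 CPM in WT, at 0.43 (SE 0.14). PAA2 had 114, 124 and 118 CPM in atml1-3 and 77.7, 85.4 and 99.0 CPM in WT, at 0.44 (SE 0.15), and PBD2, of which 10.9% is overlapped by a gene on the other strand, was at 0.50 (SE 0.16). For all 4 the groups did not overlap, although none passed with edgeR (lowest adjusted p = 0.352). Cytosolic ribosomal proteins, chosen after their values were seen, had 170 of 211 members above 0, a median of 0.14 and 10 higher and 0 lower at an unadjusted p under 0.05. Those 10 are 4.74%, below the 5.40% of all genes. Their median was 0.05 without atml1-3 replicate 2, and 0.21 without atml1-3 replicate 3 or WT replicate 2. Their library medians overlapped, at 0.13, 0.32 and -0.04 in atml1-3 and -0.07, 0.14 and -0.05 in WT. Small nucleolar RNAs, which guide modification of ribosomal RNA, had 29 of 36 tested members above 0 and a median of 0.52, likewise a class picked after its values were seen. Of 287 such genes, only those 36 had enough counts to be tested. At an unadjusted p under 0.05, 3 were higher (8.33%, against 5.40% of all genes) and 0 lower. Without overlap, 11 lay higher (30.6%, against 9.74% of all genes).

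Histones had a median of 0.26, with 31 of 45 above 0 and 5 higher (11.1%, against 5.40% of all genes) and 0 lower at an unadjusted p under 0.05. That median was 0.16 without atml1-3 replicate 2 and 0.39 without atml1-3 replicate 3. H2AXA, a variant linked to DNA damage signalling, had 46.4, 42.2 and 44.9 CPM in atml1-3 and 35.7, 34.1 and 35.9 CPM in WT, at 0.34 (SE 0.13), and the H3.3 gene AT5G10980 had 189.7, 217 and 154 CPM in atml1-3 and 142, 116 and 147 CPM in WT, at 0.47 (SE 0.18). Glutathione transferases, detoxification enzymes, had 31 of 44 above 0 and a median of 0.22, with 8 higher (18.2%) and 2 lower (4.55%) at an unadjusted p under 0.05, and 0.10 without atml1-3 replicate 2. The microsomal member AT1G65820 had 125, 145 and 146 CPM in atml1-3 and 88.2, 82.3 and 99.7 CPM in WT, at 0.62 (SE 0.15), and GSTZ1, of tyrosine breakdown, had 293, 281 and 369 CPM in atml1-3 and 215, 197 and 233 CPM in WT, at 0.55 (SE 0.17). Oxygenases that use 2-oxoglutarate had 40 of 57 above 0, a median of 0.18 and 7 higher (12.3%) and 1 lower at an unadjusted p under 0.05. The prolyl hydroxylase gene AT5G18900 was at 0.32 (SE 0.13) and AT1G52820 at 1.00 (SE 0.31). MADS-box genes had 28 of 36 above 0 and a median of 0.20, or 0.12 without WT replicate 1. At an unadjusted p under 0.05, 2 were higher (5.56%, close to the 5.40% of all genes) and 1 lower. Members above 0 included AGL20, the flowering regulator SOC1, at 0.49 (SE 0.21) and the carpel gene SHP1 at 0.91 (SE 0.34). SHP1 had 8.63, 4.39 and 8.02 CPM in atml1-3 and 4.38, 2.80 and 3.96 CPM in WT. SHP1 is 1 of the carpel markers summed above, 23.2% of its length is overlapped by a gene of the other strand, and the part of carpel tissue was not tested. Jacalin lectins (8 tested, median 0.19), MLP-like proteins (12, median 0.19) and class III peroxidases (27, median 0.19) reached similar medians, but each changed sign when 1 library was left out, at -0.07 without atml1-3 replicate 2, -0.03 without WT replicate 1, and -0.04 or -0.03 without atml1-3 replicate 1 or 2.

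Abscisic acid and senescence genes, listed after the fit was seen, had 16 of 24 members above 0 and a median of 0.25, with 8 higher (33.3%, against 5.40% of all genes) and 0 lower at an unadjusted p under 0.05. That median was 0.61 without WT replicate 1 and 0.43 without atml1-3 replicate 3. SRG1, an oxygenase that accumulates in senescing tissue, had 168, 147 and 156 CPM in atml1-3 and 57.0, 52.9 and 92.7 CPM in WT. It was higher without overlap, at 1.22 (SE 0.23), with an adjusted p of 0.301 by edgeR and 0.000884 to 0.627 over the alternatives. HAI3, a phosphatase that restrains abscisic acid signalling, had 5.80, 5.64 and 5.21 CPM in atml1-3 and 2.13, 1.83 and 2.01 CPM in WT, at 1.48 (SE 0.28). HB-7, a homeodomain factor induced by drought, had 245, 259 and 213 CPM in atml1-3 and 161, 134 and 96.1 CPM in WT, at 0.88 (SE 0.21), and LTI65 had 14.9, 9.64 and 2.99 CPM in atml1-3 and 2.08, 1.22 and 2.78 CPM in WT, at 2.18 (SE 0.58). Other members were below 0. RD29A, induced by drought and cold, was at -0.69 (SE 0.58) with 244, 508 and 308 CPM in atml1-3 and 788, 784 and 140.2 CPM in WT, and NCED3, the rate-limiting enzyme of abscisic acid synthesis, at -0.89 (SE 0.46). In the anthocyanin list the median was 0.23 over 10 tested genes, 6 above 0, with -0.10 without WT replicate 3, 0.07 without WT replicate 1 and 0.71 without WT replicate 2. Its regulator PAP2 had 7.75, 9.30 and 6.71 CPM in atml1-3 and 0.0577, 1.89 and 0.532 CPM in WT, without overlap, at 3.26 (SE 0.78), whereas the enzyme genes CHS and DFR were at -0.60 (SE 0.45) and 1.00 (SE 0.54).

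Aliphatic glucosinolate genes, which make defence compounds from methionine, were lower in 17 of 20 tested members, with a median of -0.65 and 9 lower at an unadjusted p under 0.05 (45.0%, against 6.62% of all genes). Library medians were -0.60, -0.60 and -0.61 in atml1-3 and -0.16, 0.58 and -0.38 in WT. The median fold change was -0.22 on the log2 scale without WT replicate 2 and -1.11 without WT replicate 3, and between -1.28 and -1.07 without 1 of the atml1-3 libraries. These fits filtered genes anew, so their medians can cover other members, with 22 tested without WT replicate 3. CYP83A1, which converts aldoximes, had 7.75, 3.86 and 3.17 CPM in atml1-3 and 26.3, 80.4 and 7.68 CPM in WT, and MAM1, of side chain elongation, had 3.34, 1.78 and 0.599 CPM in atml1-3 and 14.4, 29.7 and 2.95 CPM in WT, so WT replicate 3 was within the atml1-3 range for both. GSTU20, which acts in the conjugation step, had 10.8, 14.5 and 12.3 CPM in atml1-3 and 24.8, 39.5 and 20.3 CPM in WT and did not overlap, at -1.17 (SE 0.27). CYP79F1 was not tested because of low counts, with 0.252, 0.289 and 0.120 CPM in atml1-3 and 2.60, 12.9 and 0.473 CPM in WT. The regulator MYB28 had 17.1, 16.7 and 25.5 CPM in atml1-3 and 16.6, 36.4 and 21.5 CPM in WT, at -0.33 (SE 0.31), and MYB29, too low to be tested, had 0 counts in all 3 atml1-3 libraries and 4, 6 and 2 counts in WT. Indolic glucosinolate genes showed no common direction, with 7 of 11 above 0 and a median of 0.25. In that list the conjugating transferase GSTF10 was at 0.80 (SE 0.29) and the glucosyltransferase UGT74B1 at -0.79 (SE 0.22). Sulfur deficiency genes had 6 of 11 above 0 and a median of 0.15, with library medians of -0.31, 0.33 and 0.57 in atml1-3 and -0.52, 0.62 and -0.18 in WT. With 1 library left out, the indolic median was between 0.05 (without WT replicate 3 or atml1-3 replicate 1) and 0.50 (without WT replicate 1). The sulfur median was between -0.07 (without WT replicate 1 or atml1-3 replicate 3) and 0.57 (without WT replicate 2).

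The phase of the circadian clock was examined because the hour of collection is not given in the sources used here. Morning genes, listed after the fit was seen, were below 0 in 11 of 11 members, with a median of -0.41 and 4 lower at an unadjusted p under 0.05 (36.4%, against 6.62% of all genes). Without WT replicate 2 that median was -0.15, and without atml1-3 replicate 3 it was -0.64. RVE1, a morning factor linked to auxin, had 29.1, 35.9 and 38.1 CPM in atml1-3 and 171, 118 and 52.6 CPM in WT, at -1.73 (SE 0.38), and CDF2, a repressor of flowering genes, had 26.3, 28.4 and 42.4 CPM in atml1-3 and 85.8, 88.3 and 49.3 CPM in WT, at -1.20 (SE 0.27). CCA1, a core morning component, had 146, 129 and 171 CPM in atml1-3 and 224, 384 and 151 CPM in WT, and LHY had 152, 145 and 149 CPM in atml1-3 and 240.5, 469 and 156 CPM in WT, with WT replicate 2 highest for both and WT replicate 3 close to atml1-3. Evening genes had a median of 0.03 over 10 members, of -0.31 without WT replicate 2 and of 0.41 without WT replicate 1. PRR3 had 21.2, 24.2 and 20.5 CPM in atml1-3 and 11.1, 6.52 and 13.8 CPM in WT, higher without overlap at 1.07 (SE 0.27), while TOC1 had 108, 119.6 and 110.1 CPM in atml1-3 and 265, 86.7 and 92.5 CPM in WT, where WT replicate 1 alone was high. Library medians of the morning genes were -0.43, -0.75 and -0.21 in atml1-3 and -0.11, 0.46 and -0.50 in WT, so the genotypes overlapped. The part that the hour of collection had in other results was not tested. Stomatal lineage genes had a median of -0.25 over 6 tested members (-0.38 without atml1-3 replicate 2, -0.16 without atml1-3 replicate 1), with 0 at an unadjusted p under 0.05, and FAMA, the factor of guard cell fate, had 59.7, 80.8 and 65.9 CPM in atml1-3 and 73.9, 78.4 and 97.1 CPM in WT.

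The 10 nuclear genes of smallest p in each direction, among those without overlap, are described last. On the lower side, after AT5G21960, were NUDT21, a nudix hydrolase, with 21.5, 19.3 and 19.7 CPM in atml1-3 and 73.7, 57.7 and 53.8 CPM in WT, and DIC2, a mitochondrial dicarboxylate carrier, with 31.0, 16.5 and 18.0 CPM in atml1-3 and 92.0, 87.1 and 85.5 CPM in WT. Their log2 fold changes were -1.61 (SE 0.17) and -2.01 (SE 0.25), and their adjusted p 0.0887 and 0.201 by edgeR. SZF1 and RHL41, given above, were next to FRO6, a ferric reductase of leaves, with 283, 282 and 276 CPM in atml1-3 and 580.0, 602 and 576 CPM in WT, at -1.06 (SE 0.15). BRC1, a TCP factor that holds back axillary buds, had 15.9, 19.7 and 15.4 CPM in atml1-3 and 43.0, 36.3 and 34.6 CPM in WT, at -1.16 (SE 0.17). CAMBP25, a calmodulin-binding protein, had 14.3, 13.7 and 17.7 CPM in atml1-3 and 52.5, 54.6 and 30.7 CPM in WT, at -1.59 (SE 0.24). AT4G29780, annotated as a nuclease, and AT2G05160, a CCCH zinc finger protein, were at -1.89 (SE 0.27) and -1.79 (SE 0.27). None of these 10 passed with edgeR over all 6 libraries.

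On the higher side AT5G24240, a phosphatidylinositol 4-kinase-like gene, had 21.4, 17.4 and 11.2 CPM in atml1-3 and 0.692, 2.80 and 1.42 CPM in WT, at 3.35 (SE 0.48), the largest difference among the 10 genes named in this direction. BAC2, a mitochondrial carrier of arginine, had 52.5, 42.5 and 48.3 CPM in atml1-3 and 16.6, 14.0 and 24.4 CPM in WT, at 1.38 (SE 0.22). AT4G15610, a CASP-like membrane protein, had 118, 123 and 117 CPM in atml1-3 and 43.9, 29.5 and 59.0 CPM in WT, at 1.44 (SE 0.24). SAUR36, an auxin-responsive gene, had 45.7, 45.9 and 53.4 CPM in atml1-3 and 25.0, 21.7 and 28.4 CPM in WT, at 0.95 (SE 0.16), and AT2G17500 (PIN-LIKES 5), an auxin carrier of the endoplasmic reticulum, had 236, 259 and 254 CPM in atml1-3 and 150.4, 133 and 149 CPM in WT, at 0.79 (SE 0.14). The Dof factor AT2G28510 was at 1.06 (SE 0.19), AT3G16990 (TENA-E) at 1.00 (SE 0.18), the strictosidine synthase-like AT3G57010 at 1.22 (SE 0.22), AT5G10625, related to a flowering-promoting factor, at 1.37 (SE 0.25), and AT2G05518, a non-coding RNA, at 1.58 (SE 0.26). Genes on the other strand overlap 12.6% of BAC2 and 39.8% of AT3G16990. The adjusted p of BAC2 was 0.301 by edgeR and 0.000122 to 0.627 over the alternatives.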

How the data were processed

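RNA of 3 atml1-3 and 3 WT sepal libraries was compared, grouped by the sample titles; 3 gir1-1 libraries served as an alternative. Raw read counts per gene were deposited by the authors in one table, per the file headers. The submitters' processing notes name the TAIR10 build. The aligner, counter and use of strand are not given in the sources used here. The authors' deposited FPKM values, their scaled signal means, log2 fold changes and p-values, per the file headers, entered no test. Gene positions and promoters came from RefSeq TAIR10.1, in which 38068 of 38299 genes of the table had a locus.

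Nuclear genes (37884 in the table, 18540 tested) were fitted with edgeR 4.0.16 in R 4.3.3 by quasi-likelihood F tests after filterByExpr and TMM. P-values were adjusted over all genes of a fit by the Benjamini-Hochberg method, with a threshold of 0.05. Organelle genes had their own fit with the nuclear library sizes. The SE of a log2 fold change was taken as its size over the root of the F statistic. Alternatives were DESeq2 1.42.0, limma 3.58.1 voom, robust fitting, other scalings and filters, all 9 libraries, a replicate block and leaving out each library. Fits with other filters, with all 9 libraries or with 1 left out chose their tested genes anew. The fits were tested on simulated data.

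The genes named by rule were 5 regulators, the 10 non-overlapping genes of smallest p in each direction with a mean of at least 10 counts, up to 4 members of smallest p in each list and in each of the 8 highest and 8 lowest families by median with at least 8 tested members, and 5 organelle genes in each direction. Of these, 1 organelle gene is not reported here. Any other gene, and any list or family said to be chosen later, was named after its values were seen. Members and lists were chosen with earlier results of these data known. Family membership rests on 65 patterns of words in the deposited gene descriptions. Where use of strand is unknown, reads of genes that overlap on opposite strands cannot be told apart.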

Additional observations from a re-analysis of the deposited data

How the results depend on the processing

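DESeq2 called 301 nuclear genes and edgeR without a filter on low counts 6, against 0 in the fit reported. Leaving out 1 library gave 0 to 131 nuclear calls, the 131 without WT replicate 3 and 1 each without WT replicate 2 and without atml1-3 replicate 1, and 1433 to 3162 genes at an unadjusted p under 0.05. It gave 0 to 19 organelle calls. Organelle genes scaled to each organelle's own counts gave 1 call, and 1 fit with nuclear genes gave 0. Scaling to total counts put the median of all nuclear genes at 0.08 on the log2 scale and split the genes with an unadjusted p under 0.05 into 1581 higher and 752 lower, against 1001 and 1227. Under it, medians were -0.20 for aquaporins, -0.20 for AUX/IAA proteins, 0.35 for histones, 0.29 for proteasome subunits, 0.26 for 2-oxoglutarate oxygenases, 0.36 for indolic glucosinolate genes, -0.24 for chlorophyll synthesis and -0.083 for plastid transcription. The AUX/IAA median was -0.28 over genes with a mean of at least 10 counts. The aliphatic glucosinolate median was -1.62 in the fit over all 9 libraries, whose filter tests more members. The indolic median was 0.034 with limma-voom and 0.092 with the replicate block.

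Leaving out 1 library gave medians of -0.50 to -0.15 for cellulose synthases, -0.38 to -0.15 for AP2/ERF factors, -0.34 to -0.12 for aquaporins, -0.30 to -0.20 for AUX/IAA proteins, 0.16 to 0.39 for histones, -1.28 to -0.22 for aliphatic and 0.052 to 0.50 for indolic glucosinolate genes, and -0.37 to -0.074 for giant cell genes. The log2 fold change of GIR2 was 0.022 with total counts, 0.018 with limma-voom, and between -0.41 and 0.46 with 1 library left out, 0.060 without atml1-3 replicate 1, 0.036 without atml1-3 replicate 3 and 0.46 without WT replicate 1. That of AT1G05770 was -0.00846 without atml1-3 replicate 2 and otherwise up to 0.91 with 1 library left out, and that of psaJ was between -0.18 and 0.58, the lowest without atml1-3 replicate 1. Scaled to organelle counts, psaA was at 0.086, psbC at 0.064, atpA at 0.13 and the mitochondrial gene 38088305 at 0.035. Fits with 1 library left out also chose their tested genes anew, so medians can cover other members. Beyond the constructions named, the cause of these shifts was not tested.

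With the replicate number as a block, 0 nuclear and 20 organelle genes passed and 1777 nuclear genes had an unadjusted p under 0.05. Whether the replicate numbers mark a shared collection is not labelled. Deviations of same-numbered libraries correlated at -0.052, -0.025 and -0.071, which cannot show how the libraries were collected. Counting error limits values near 0.189 CPM.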

Other observations

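Families not described above are given here as values. Dof zinc finger factors, plant transcription factors, were below 0 in 17 of 26 tested members (median -0.20), with library medians of -0.24, -0.11 and -0.14 in atml1-3 and 0.02, 0.05 and 0.00 in WT. That median was -0.13 without atml1-3 replicate 1, -0.11 without WT replicate 1 and -0.12 without WT replicate 3. Heat shock proteins and factors were above 0 in 64 of 112 members (median 0.08), with 13 higher (11.6%, against 5.40% of all genes) and 4 lower (3.57%, against 6.62%) at an unadjusted p under 0.05, and the median was 0.05 without atml1-3 replicate 1 and 0.14 without WT replicate 2. Cysteine-rich receptor kinases were below 0 in 19 of 24 members (median -0.23), with WT replicate 3 at -0.20, between atml1-3 replicates 2 and 3 at -0.07 and -0.10 and atml1-3 replicate 1 at -0.59. Their median was -0.51 without atml1-3 replicate 2, -0.42 without WT replicate 3 and -0.11 without WT replicate 1. Arabinogalactan proteins, wall glycoproteins, had a median of -0.01 and spread by library instead, at 0.68, -0.18 and -0.24 in atml1-3 and -0.45, -0.24 and 0.66 in WT, and the median was -0.44 without atml1-3 replicate 1 and 0.34 without WT replicate 3. Families with medians between -0.01 and 0.01 included F-box proteins (274 tested) and MYB factors (97 tested).

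Of the list members, 5 lay almost wholly opposite to a gene of the other strand and had few or no counts. MYC2, the main jasmonate transcription factor, had 0 counts in all 6 libraries and 98.5% of its length is overlapped. GSTF11 (100%), ERF105 (100%) and CYP81F1 (98.4%) likewise had 0 counts in all 6. F3H, a flavonoid hydroxylase overlapped over 94.5%, had 0, 0 and 1 counts in atml1-3 and 0, 1 and 0 counts in WT. These genes entered no fit, and whether overlap set their counts was not tested.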
